A study of Mus musculus with 6 samples.

Results

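The interleukin and hematopoietic cytokine receptors described here are the genes whose Entrez Gene number maps to a symbol starting with Il, a number and r, together with 14 named receptor genes such as Csf3r, Epor, Il6st and the interferon receptors. The rule used names only, and it found 51 genes among the 23185 named genes on the array. They were read in 3 Merit40-/- and 3 wild-type (WT) arrays. Each array held RNA of hematopoietic stem cells (HSCs) that were freshly isolated from the bone marrow of young adult mice. They were sorted in 2 rounds by the surface phenotype CD150+CD48-LSK, where LSK stands for cells without lineage markers that carry Sca-1 and c-Kit. Merit40-/- mice lack Merit40, a subunit of deubiquitinase complexes that is encoded by Babam1, and no other allele or treatment is given for either group. The labels call the arrays biological replicates but do not say how many mice each one pooled or which sex they were. The p-values thus rest on variation between these arrays, and limma draws the variance of each gene towards that of all genes.

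Cytokine receptors carry signals from secreted proteins into blood cells. Most class I chains and the class II chains bind JAK kinases, which phosphorylate STAT factors when a ligand joins the chains, whereas the interleukin-1 and interleukin-17 receptor families signal through adaptors such as Myd88 and Traf3ip2. Several ligands share a chain: the common beta-chain serves IL-3, IL-5 and GM-CSF, and gp130, encoded by Il6st, serves IL-6, IL-27, LIF and oncostatin M. In HSCs, interferons and interleukin-1 are known to drive stem cells out of quiescence. BRISC, one of the Merit40 complexes, is known to remove ubiquitin from the interferon receptor protein IFNAR1, a step that RNA levels do not measure.

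Each gene had 1 log2 expression value on each array, computed by the authors through RMA according to the processing notes of the submitters. As a mark of low signal, the 95th percentile of 1368 chemosensory receptor genes was taken on each array, since HSCs have no known use for those genes. This signal mark lay between 4.47 and 4.66. Levels of different genes are not compared as amounts, because each probe set responds differently, and log2 differences near or below the mark understate changes in transcript. Babam1 read 4.29, 3.87 and 4.01 on the Merit40-/- arrays and 7.91, 8.04 and 8.05 on the WT arrays, a fall of 3.94 (SE 0.14, adjusted p = 5.04e-05 in limma). All 10 measured HSC markers, among them Slamf1 (CD150), Kit and Procr, lay above the mark on every array. Merit40-/- replicate 1 carried skeletal muscle transcripts: 10 muscle markers averaged 8.77 there, against 4.52 to 4.85 on the other arrays. Merit40-/- replicate 3 carried osteoclast transcripts, with 10 markers at a mean of 5.78 against 4.67 to 4.82 elsewhere. Ctsk (7.94) and Acp5 (7.91) stood out most there. Mmp9 and Ocstamp, and below the mark Atp6v0d2 and Oscar, also read highest on that array. Dcstamp, Itgb3 and Nfatc1 lay within the range of the other arrays, and Calcr read lowest there. Transcripts of granulocytes were present on all arrays, with the neutrophil genes S100a8 at 11.94 and Camp at 10.02 in Merit40-/- and at 12.04 and 10.15 in WT. In such bulk samples, a change in the number of contaminating cells and a change in RNA per cell cannot be told apart.

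In WT HSCs, 27 of the 51 receptor genes (52.9%) lay above the signal mark on all 3 arrays, beside 51% of all named genes. Over the 6 arrays of both genotypes, 27 genes lay above the mark on every array, 19 on none and 5 on some. The 5 were Csf1r, Il22ra2, Il18r1, Il1rl2 and Il17rc. The plot of all receptor genes by array shows that the arrays of a gene stay close together compared with the distance of most genes from the mark: the median gene of the list spanned 0.55 from its lowest to its highest array, beside 0.49 over all named genes.

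**Figure D1:**
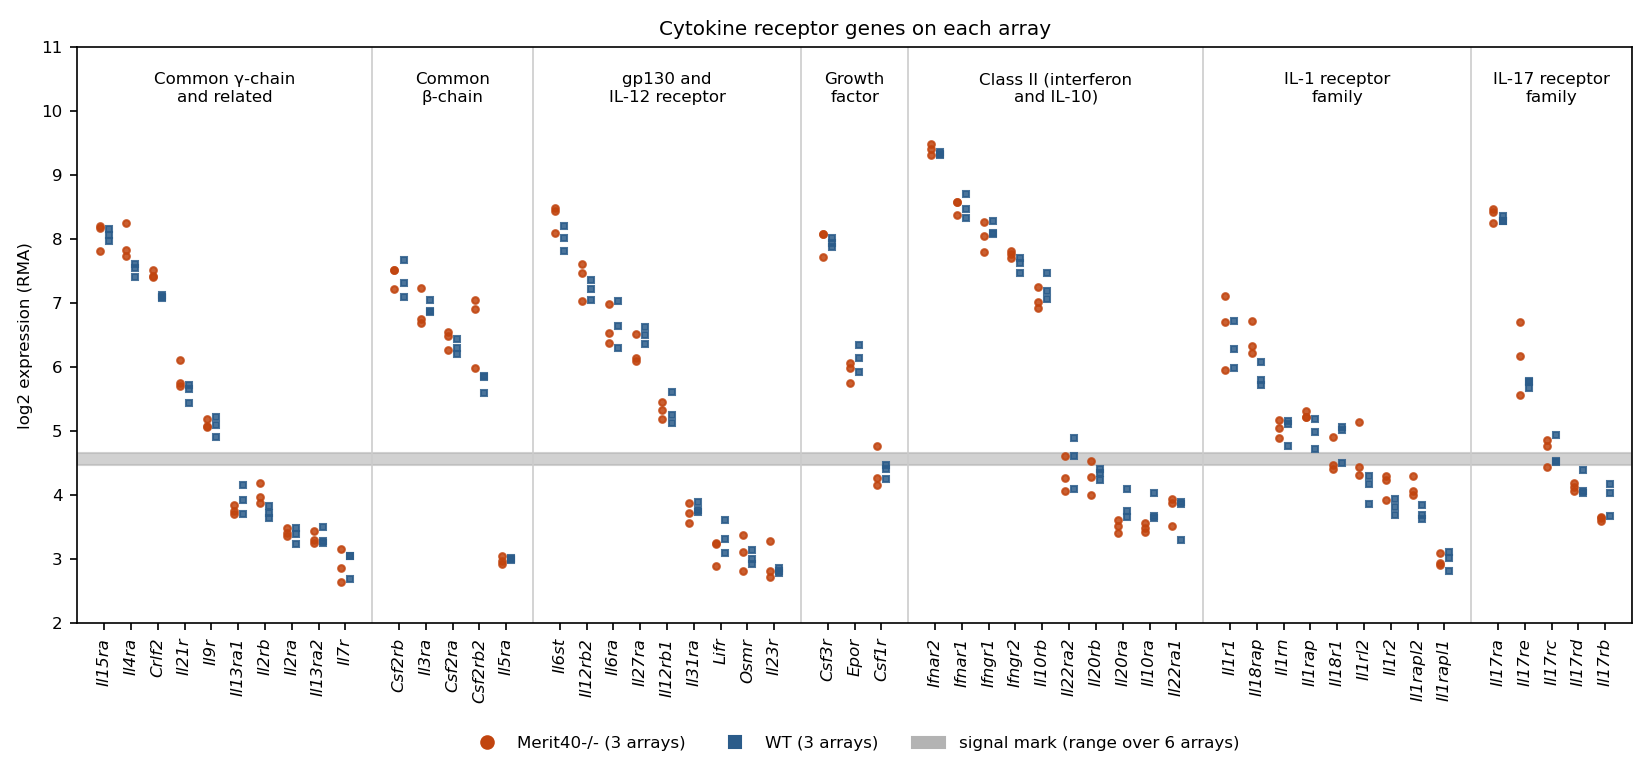
Level of each of the 51 cytokine receptor genes on each array (vertical axis, log2 expression), with Merit40-/- arrays as circles left of the WT arrays as squares, and the signal mark as a grey band from 4.47 to 4.66. In all, 27 genes lie above the mark on all 6 arrays and 19 on none; the order along the axis is no ranking of transcript amounts.

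The interferon receptors were among the receptors that lay above the mark on all 6 arrays. Ifnar2, which with Ifnar1 forms the receptor of type I interferons, read 9.48, 9.40 and 9.31 in Merit40-/- and 9.32, 9.37 and 9.33 in WT. Ifnar1 read 8.58, 8.57 and 8.38 in Merit40-/- and 8.48, 8.34 and 8.71 in WT. Both genes had overlapping groups, and their differences were 0.06 (95% interval -0.20 to 0.32) and 0.0044 (-0.31 to 0.32). Of the interferon-gamma receptor, the ligand-binding chain Ifngr1 averaged 8.04 ± 0.23 in Merit40-/- and 8.15 ± 0.11 in WT (SD, n = 3 each). Its partner Ifngr2 averaged 7.76 ± 0.05 and 7.60 ± 0.12 (SD, n = 3 each; difference 0.17, interval -0.11 to 0.44, and 0.10 without WT replicate 1). Of the IL-10 family, only the shared chain Il10rb lay above the mark on every array, at 7.06 ± 0.17 in Merit40-/- and 7.24 ± 0.21 in WT (SD, n = 3 each). Its ligand-specific partners Il10ra and Il22ra1, the IL-20 receptor chains Il20ra and Il20rb, and, on 4 of 6 arrays, the soluble IL-22 binding protein Il22ra2 did not.

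Receptors that drive myeloid and erythroid production were also read in these sorted samples. Csf3r, the G-CSF receptor, read 8.09, 7.72 and 8.08 in Merit40-/- and 8.01, 7.88 and 7.94 in WT, and the groups overlapped. Neutrophil transcripts were present on all arrays, and their part in the Csf3r reading was not tested. Epor, the erythropoietin receptor, read 5.99, 5.75 and 6.06 in Merit40-/- and 5.92, 6.15 and 6.35 in WT, with a difference of -0.20 (SE 0.15) that was -0.31 without WT replicate 1 and -0.10 without WT replicate 3. Of 8 measured erythroid markers, all above the mark on every WT array and 7 on every Merit40-/- array, 6 read lower in Merit40-/- and 2 higher, 3 of them lower at an unadjusted p under 0.05 and 0 past the threshold. Their mean was 6.70, 7.11 and 6.77 in Merit40-/- and 7.50, 7.01 and 7.01 in WT. Of 9 megakaryocyte and platelet markers, 8 above the mark on all 6 arrays, 8 read lower and 1 higher, 3 of them lower at an unadjusted p under 0.05 and 0 past the threshold. Their mean was 6.84, 7.01 and 6.90 in Merit40-/- and 7.23, 7.32 and 7.17 in WT, without overlap. Beside both lists, 51.5% of all genes read higher, and 1.96% read lower at an unadjusted p under 0.05 in limma. Whether these marker transcripts came from other cells or from the HSCs, and how they relate to the Epor reading, was not tested. Csf1r, the M-CSF receptor of monocytes and of the osteoclast lineage, read 4.16, 4.27 and 4.78 in Merit40-/- and 4.47, 4.41 and 4.25 in WT. Only Merit40-/- replicate 3, the array with osteoclast transcripts, lay above the mark for Csf1r, and whether these cells account for that reading was not tested.

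Which ligands had both chains of their receptor above the mark was read from 23 pairs of chains known from textbook biology. Both chains lay above the mark on all 3 WT arrays for 9 ligands: IL-3, GM-CSF, IL-6, IL-27, IL-12, type I interferon, interferon-gamma, IL-1 and IL-17C. The same 9 held in Merit40-/-. For IL-1, Il1rap read 4.72 on WT replicate 3, close to the mark of 4.66 on that array. With the 99th percentile of the chemosensory genes as the mark, Csf2ra, Il12rb1, Il1r1, Il1rap and Il17re were not above it on all 3 WT arrays. GM-CSF, IL-12, IL-1 and IL-17C then left the WT list. The Merit40-/- list differed at this stricter mark: IL-12, IL-1, IL-17C and IL-27 left it, and GM-CSF stayed. There Csf2ra lay above the stricter mark on every array, whereas Il27ra read 6.10 on Merit40-/- replicate 3, where that mark was 6.38. For 10 further ligands 1 chain lay above and the other on no WT array: the shared chain was read but Il5ra (IL-5), Lifr, Osmr, Il23r, Il10ra, Il22ra1 and Il1rl2 (IL-36) were not, Crlf2 was read without its partner Il7r (TSLP), Il4ra without Il13ra1 (IL-13), and Il17ra without Il17rb (IL-25). The IL-31 and IL-20 pairs had neither chain above the mark, and the IL-18 and IL-17A pairs had 1 chain near it. For IL-18, the ligand-binding chain Il18r1 read 4.91, 4.47 and 4.41 in Merit40-/- and 5.06, 5.02 and 4.51 in WT. A chain below the mark may still be transcribed at a level this array does not resolve.

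No cytokine receptor gene passed the threshold between the genotypes: 0 of 51 had an adjusted p under 0.05 in limma, beside 0.00431% of all genes (Babam1 alone), and the smallest adjusted p among them was 0.999. At an unadjusted p under 0.05 there were 6 receptor genes (11.8%), beside 4.22% of all genes. All 6 read higher in Merit40-/-, beside 2.26% of all genes that did so, and 0 read lower, beside 1.96%. Of the 6, Il1r2 and Il1rapl2 lay below the signal mark on every array. Without the dimmest 50% of genes, 4 of 27 receptor genes read higher at that level and 0 lower, beside 2.23% and 2.04% of the genes kept. A fit without both Merit40-/- arrays that carry muscle or osteoclast transcripts leaves only Merit40-/- replicate 2 in its group. No count at that level is therefore given for it. For 11 receptor genes (21.6%) all arrays of 1 genotype lay above all arrays of the other, beside 9.05% of all genes. Of these, 8 were higher in Merit40-/- (background 4.84%) and 3 lower (background 4.22%). Among the 11, Il2rb, Il1rapl2, Il17rb, Il10ra and Il20ra lay below the mark on every array. The median difference over the 51 genes was 0.027, beside 0.0052 over all named genes, with 30 genes higher (58.8%, beside 51.5% of all genes) and 21 lower. Without WT replicate 3 the median was 0.072 and without Merit40-/- replicate 1, the array with muscle transcripts, it was 0.013. Without both Merit40-/- arrays with muscle or osteoclast transcripts it was 0.0047. The 95% intervals of 49 of the 51 genes reached no further than 1 log2 unit in either direction, beside 96.4% of all genes. The exceptions were Csf2rb2 and Il1rl2.

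**Figure D2:**
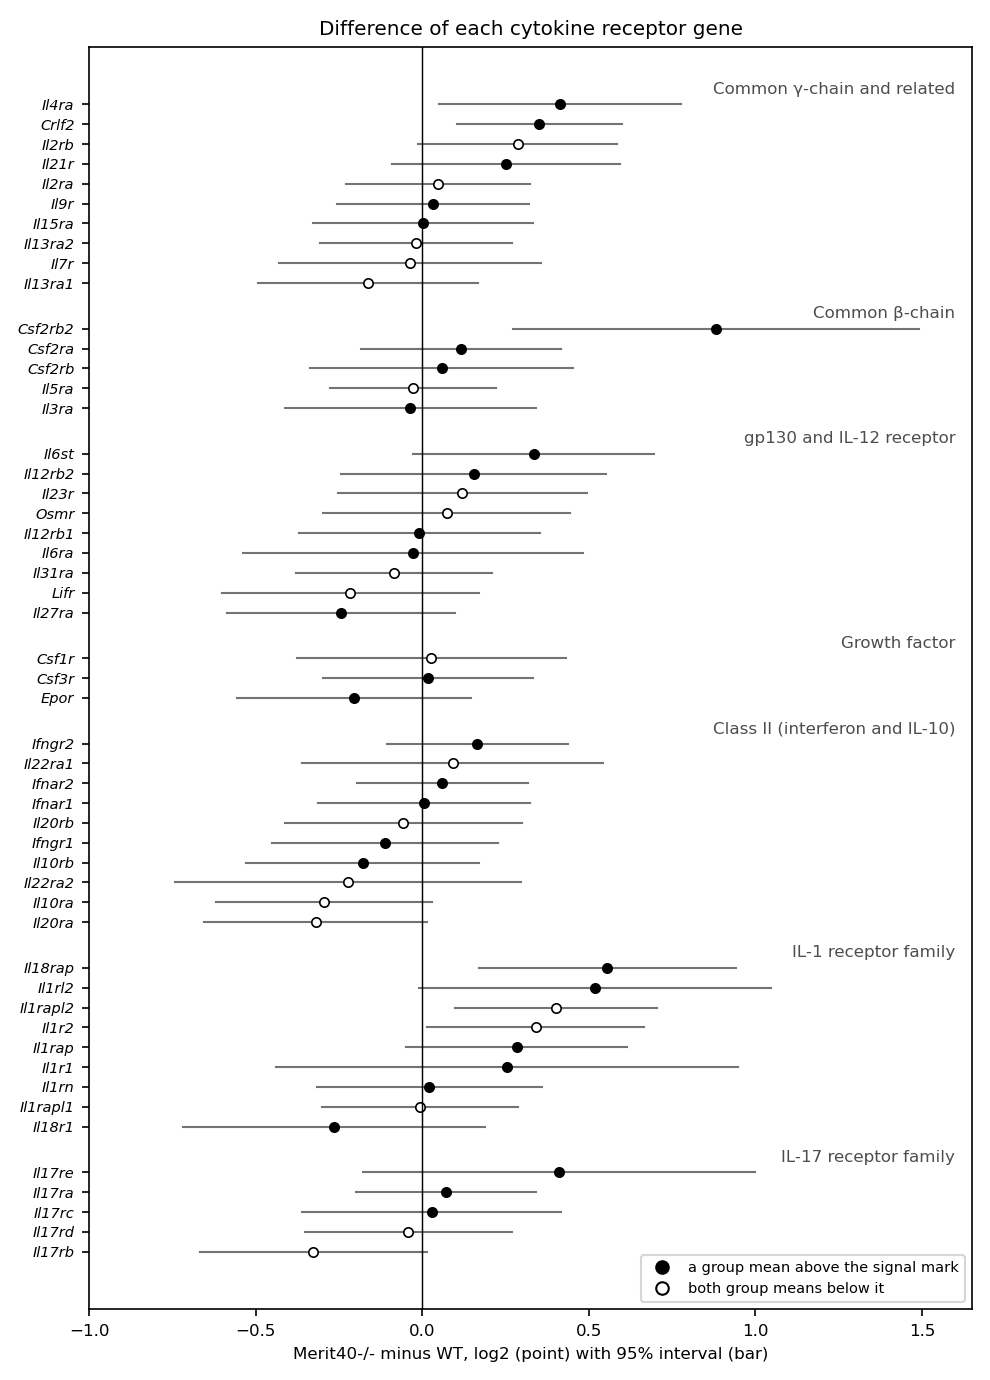
Difference of each of the 51 genes (horizontal axis, Merit40-/- minus WT, log2), with limma's 95% interval as a bar, grouped by receptor family. Filled points have a group mean above the signal mark. Differences run from -0.33 (Il17rb) to 0.88 (Csf2rb2), and 0 genes passed an adjusted p of 0.05.

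Among the common beta-chain receptors, Csf2rb2 had the highest difference of all 51 genes. Csf2rb2 encodes a second beta-chain of the mouse that serves IL-3 only, next to Csf2rb on chromosome 15. It read 7.05, 6.92 and 5.98 in Merit40-/- and 5.60, 5.85 and 5.85 in WT. The groups did not overlap, but Merit40-/- replicate 3 lay close to the WT arrays. The difference was 0.88 (SE 0.26, 1.84-fold, unadjusted p = 0.0101, adjusted p = 0.999 in limma). Leaving out 1 array at a time gave 0.68 without Merit40-/- replicate 1 to 1.22 without Merit40-/- replicate 3, and in the last fit the adjusted p was 0.466 in limma. In an unmoderated test of all 6 arrays, which uses the spread of each gene alone, Csf2rb2 did not reach an unadjusted p under 0.05. The common chain Csf2rb, which IL-3, IL-5 and GM-CSF share, read 7.51, 7.23 and 7.51 in Merit40-/- and 7.32, 7.09 and 7.67 in WT. These groups overlapped, and the difference was 0.06 (interval -0.34 to 0.45). The sequences of both genes are close, so probes may read both, and the contrast between them was not tested. The ligand-specific chains Il3ra (-0.04, interval -0.41 to 0.34), Csf2ra (0.12, interval -0.18 to 0.42) and Il5ra (-0.03, below the mark on every array) had overlapping groups.

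Markers of granulocytes and monocytes followed the array pattern of Csf2rb2 in part. All 11 measured markers lay above the mark on every array. Of them, 7 were higher and 4 lower in Merit40-/-, beside 51.5% of all genes higher. The marker mean was 9.11, 9.15 and 8.57 on the Merit40-/- arrays and 8.98, 8.76 and 8.61 on the WT arrays. Within Merit40-/-, replicates 1 and 2 were thus high and replicate 3 low in both. Against WT, Merit40-/- replicate 3 lay below every array for the markers (8.57) but above every array for Csf2rb2 (5.98). WT replicate 1 was high for the markers and had the lowest Csf2rb2 reading. The granule protease Ctsg had the highest difference of the 11 (0.92), at 7.58, 7.53 and 6.70 in Merit40-/- and 6.78, 6.15 and 6.11 in WT. The lowest was Ly6c2 at -0.18, and S100a8, S100a9 and Camp also read lower in Merit40-/-. The part of granulocytes and monocytes in the Csf2rb2 difference was not tested.

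**Figure D3:**
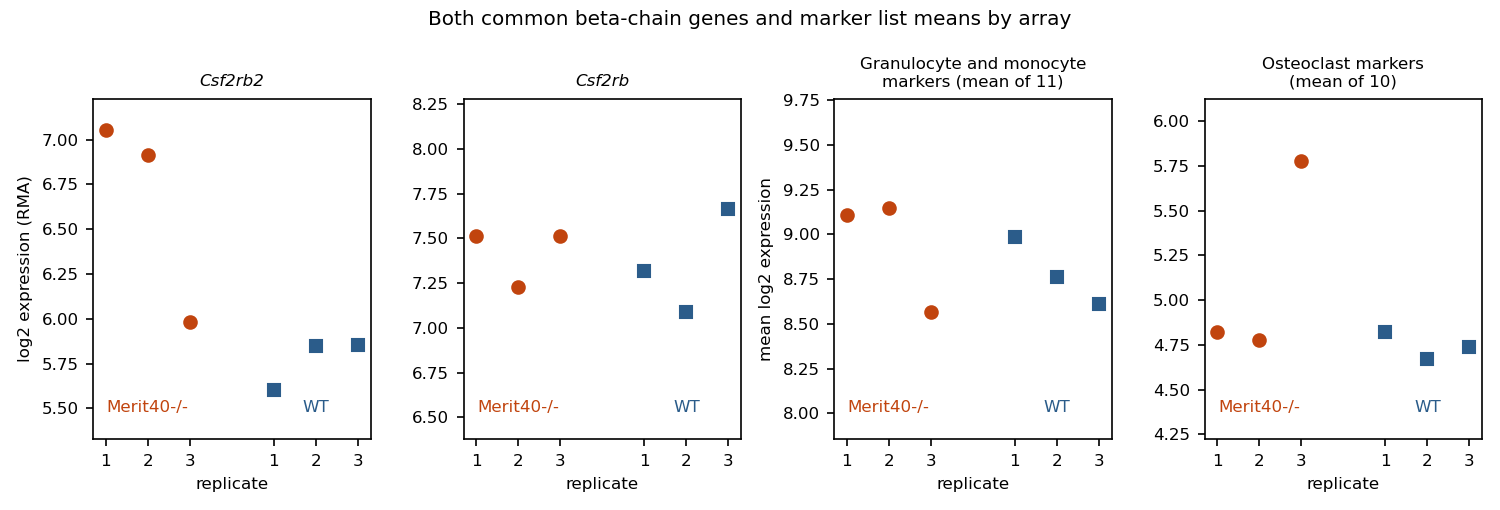
Log2 level of Csf2rb2 and Csf2rb and mean log2 level of 11 granulocyte and monocyte markers and 10 osteoclast markers on each array (vertical axes of equal span). Csf2rb2 lies at 7.05 and 6.92 in Merit40-/- replicates 1 and 2 but at 5.98 in replicate 3, against 5.60 to 5.85 in WT; the osteoclast mean is 5.78 in Merit40-/- replicate 3 and at most 4.82 elsewhere.

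Among the common gamma-chain receptors and their relatives, Crlf2 and Il4ra had unadjusted p-values under 0.05. Crlf2, the TSLP receptor chain, read 7.43, 7.41 and 7.51 in Merit40-/- and 7.10, 7.08 and 7.12 in WT. Both groups were tight and did not overlap: the SD was 0.06 in Merit40-/- and 0.02 in WT, and the difference was 0.35 (SE 0.11, 1.28-fold, unadjusted p = 0.0114, adjusted p = 0.999 in limma). Fits that omitted 1 array at a time gave Crlf2 differences of 0.32 to 0.37. Il4ra, the IL-4 and IL-13 receptor chain, read 7.74, 7.83 and 8.25 in Merit40-/- and 7.41, 7.62 and 7.55 in WT. The groups did not overlap, with the highest reading on Merit40-/- replicate 3, and the difference was 0.41 (SE 0.16, unadjusted p = 0.0304, adjusted p = 0.999 in limma). Without that array, which carries osteoclast transcripts, it was 0.26. Il21r, the IL-21 receptor and the neighbour of Il4ra on chromosome 7, also had its highest reading there (6.11), with a difference of 0.25 (SE 0.15), or 0.13 without that array. Il15ra, which presents IL-15, averaged 8.06 ± 0.22 in Merit40-/- and 8.06 ± 0.10 in WT (SD, n = 3 each). The signalling chain Il2rb, shared by IL-2 and IL-15, read higher on all 3 Merit40-/- arrays (4.20, 3.98 and 3.88) than on the WT arrays (3.72, 3.84 and 3.64), all below the mark. Il7r, which marks early lymphoid cells, averaged 2.89 ± 0.26 in Merit40-/- and 2.93 ± 0.20 in WT (SD, n = 3 each), far below the mark. Il2ra, Il13ra1 and Il13ra2 were also below the mark on every array, and Il9r lay above it with a difference of 0.03.

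In the interleukin-1 receptor family 7 of 9 genes read higher in Merit40-/- and 2 lower, with a median difference of 0.28, beside 51.5% higher among all genes. No member passed the threshold, and 3 had an unadjusted p under 0.05, beside 4.22% of all genes. Il18rap, the signalling chain of the IL-18 receptor, read 6.72, 6.33 and 6.22 in Merit40-/- and 5.73, 6.07 and 5.80 in WT. The groups did not overlap, and the difference was 0.56 (SE 0.17, 1.47-fold, unadjusted p = 0.0105, adjusted p = 0.999 in limma), with 0.41 to 0.66 when 1 array was left out. Its partner Il18r1, the neighbouring gene on chromosome 1, differed by -0.27 (SE 0.20), with overlapping groups, or by -0.44 without WT replicate 3 and -0.16 without WT replicate 1. Il1rap, the accessory chain that IL-1, IL-33 and IL-36 receptors share, read 5.22, 5.22 and 5.31 in Merit40-/- and 5.19, 4.98 and 4.72 in WT. The groups were apart by a narrow gap between the second Merit40-/- array and the first WT array, and the difference was 0.28 (SE 0.14), or 0.16 without WT replicate 3.

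The receptor that binds IL-1, Il1r1, was scattered within both groups, at 7.11, 5.95 and 6.70 in Merit40-/- and 6.28, 6.72 and 5.99 in WT. Its difference of 0.26 had an interval of -0.44 to 0.95. It was -0.0070 without Merit40-/- replicate 1, the array with muscle transcripts, 0.57 without Merit40-/- replicate 2 and 0.084 without WT replicate 3. The decoy receptor Il1r2 read 4.24, 4.29 and 3.93 in Merit40-/- and 3.81, 3.94 and 3.69 in WT (difference 0.34, unadjusted p = 0.0427, adjusted p = 0.999 in limma). The third Merit40-/- array lay just below the second WT array, and every reading lay below the mark. Il1rapl2, a relative best known from neurons, averaged 4.12 ± 0.16 in Merit40-/- and 3.72 ± 0.12 in WT (SD, n = 3 each), without overlap between arrays and also below the mark (difference 0.40, unadjusted p = 0.0157, adjusted p = 0.999 in limma). Il1rl2, the IL-36 receptor, read 4.31, 5.15 and 4.44 in Merit40-/- and 4.30, 4.17 and 3.87 in WT. It lay above the mark only on Merit40-/- replicate 2, and its difference of 0.52 was 0.26 without that array. The soluble antagonist Il1rn (0.02) and Il1rapl1 (-0.01) had overlapping groups. Il1r2, Il1r1 and Il1rl2 lie side by side on chromosome 1, and all 3 read higher in Merit40-/-, but for Il1r1 this rests on Merit40-/- replicate 1.

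**Figure D4:**
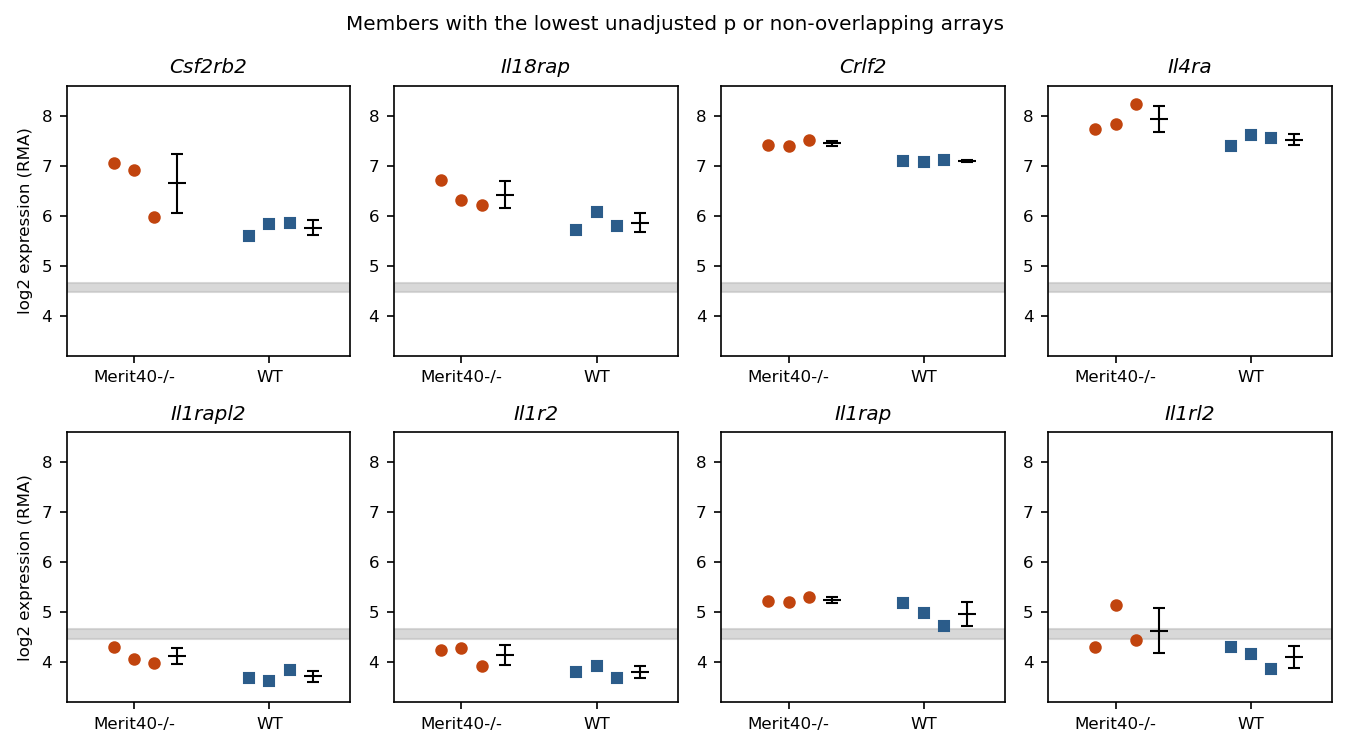
Log2 level on each array of 8 receptor genes with an unadjusted p under 0.05 or with arrays of the genotypes that do not overlap and a group mean above the signal mark (grey band). Circles are Merit40-/- and squares WT arrays, and the bar beside them is the mean ± SD (n = 3). Csf2rb2, Il18rap, Crlf2, Il4ra and, by a narrow gap on WT replicate 3, Il1rap lie above the band on all 6 arrays.

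Of the gp130 and IL-12 receptor chains, Il6st read 8.44, 8.49 and 8.10 in Merit40-/- and 7.81, 8.20 and 8.01 in WT. Merit40-/- replicate 3 lay within the WT range, and the difference was 0.33 (SE 0.16, unadjusted p = 0.0654, adjusted p = 0.999 in limma). Il6ra, the IL-6 binding chain, averaged 6.63 ± 0.32 in Merit40-/- and 6.66 ± 0.36 in WT (SD, n = 3 each). Il27ra, the IL-27 chain, read 6.51, 6.15 and 6.10 in Merit40-/- and 6.62, 6.50 and 6.36 in WT, with overlapping groups and a difference of -0.24 (SE 0.15), or -0.37 without Merit40-/- replicate 1. The IL-12 receptor chains Il12rb2 and Il12rb1 differed by 0.15 (SE 0.17) and -0.0086 (SE 0.16). The Il12rb2 difference was 0.32 without Merit40-/- replicate 1 and 0.035 without Merit40-/- replicate 2. Lifr, Osmr, Il31ra and Il23r lay below the mark on all 6 arrays.

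In the interleukin-17 receptor family the shared chain Il17ra read 8.43, 8.47 and 8.25 in Merit40-/- and 8.28, 8.28 and 8.36 in WT, with overlapping groups and a difference of 0.07 (interval -0.20 to 0.34). Il17re, the IL-17C chain, was scattered in Merit40-/- at 5.56, 6.70 and 6.17 and tight in WT at 5.67, 5.76 and 5.78. Its difference of 0.41 (SE 0.26) was 0.70 without Merit40-/- replicate 1 and was 0.13 without Merit40-/- replicate 2. Il17rc (0.03) and Il17rd (-0.04) had overlapping groups. Il17rb, the IL-25 chain, read 3.60, 3.66 and 3.64 in Merit40-/- and 3.68, 4.17 and 4.03 in WT, the lowest difference of the list at -0.33 (SE 0.15). The 3 genes with all Merit40-/- arrays below all WT arrays were Il17rb, Il10ra and Il20ra, and each of them lay below the mark on every array.

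The 250 bases before the start of the 4 genes that lay above the mark on all 6 arrays and had an unadjusted p under 0.05 are shown so that the regions from which their transcripts start can be compared. The sequences are from RefSeq (GRCm38.p6), 5′ to 3′ on the strand of the gene, and 42 of the 51 genes had an entry. Capitals mark matches on either strand to letters bound by factors active in blood cells. STAT factors are known to bind TTCNNNGAA. The myeloid factor PU.1 binds GAGGAA within a longer site. The erythroid and stem cell factors of the GATA family bind AGATAA, as one form of their site. RUNX factors, which stem cells need to arise, bind TGTGGT.
Csf2rb2 (chr15:78305722-78305971, minus strand): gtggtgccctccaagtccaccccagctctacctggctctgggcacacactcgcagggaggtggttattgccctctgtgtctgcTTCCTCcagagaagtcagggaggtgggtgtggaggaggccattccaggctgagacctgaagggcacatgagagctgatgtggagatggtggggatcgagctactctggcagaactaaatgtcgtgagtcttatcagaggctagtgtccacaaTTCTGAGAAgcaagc
Il18rap (chr1:40515112-40515361, plus strand): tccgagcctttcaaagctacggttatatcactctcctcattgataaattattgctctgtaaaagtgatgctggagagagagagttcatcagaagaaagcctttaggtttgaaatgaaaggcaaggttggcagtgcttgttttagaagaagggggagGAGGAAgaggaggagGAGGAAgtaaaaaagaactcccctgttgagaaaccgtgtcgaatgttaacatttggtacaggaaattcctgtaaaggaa
Crlf2 (chr5:109558994-109559243, minus strand): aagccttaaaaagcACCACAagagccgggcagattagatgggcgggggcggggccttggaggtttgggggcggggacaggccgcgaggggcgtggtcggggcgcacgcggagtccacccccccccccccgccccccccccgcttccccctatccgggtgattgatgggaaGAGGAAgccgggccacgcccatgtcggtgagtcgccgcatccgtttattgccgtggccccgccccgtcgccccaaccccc
Il4ra (chr7:125552021-125552270, plus strand): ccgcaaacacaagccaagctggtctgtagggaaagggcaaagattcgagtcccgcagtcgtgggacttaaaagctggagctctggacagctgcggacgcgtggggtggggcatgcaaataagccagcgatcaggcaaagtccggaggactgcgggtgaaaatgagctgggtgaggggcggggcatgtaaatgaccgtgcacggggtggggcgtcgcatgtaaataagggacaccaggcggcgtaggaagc
The STAT letters lie 15 to 7 bases before the start of Csf2rb2, where both strands match since the motif is its own reverse complement, and 7.02% of all RefSeq windows of this length hold them. PU.1 letters lie in the windows of Csf2rb2, Il18rap (2 matches inside a purine-rich run) and Crlf2, and 23.3% of all windows hold them. Crlf2 also holds the RUNX letters, which 14.0% of all windows do. The GATA letters AGATAA (9.99% of all windows) were in none of the 4, but other forms of the GATA site were not searched. Il4ra held none of the 4 motifs as searched. Over the receptor genes with an entry, at least 1 window of 7 of 42 genes held the STAT letters, of 16 the PU.1 letters, of 7 the GATA letters, Epor among them, and of 5 the RUNX letters. As shares of genes these are 16.7%, 38.1%, 16.7% and 11.9%, beside 8.13%, 25.9%, 11.4% and 15.9% of all genes with an entry. A match describes these letters only, and no binding was measured.

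Around the receptors, 0 genes of 5 further lists passed the threshold. Of 42 cytokine genes that bind these receptors, 15 read higher and 27 lower in Merit40-/-, with a median of -0.04; here and in the next lists, 51.5% of all genes read higher. The lowest was Il17c, the ligand of the receptor chain Il17re, at 3.70, 3.79 and 3.70 in Merit40-/- and 4.11, 4.53 and 4.40 in WT, all below the mark (difference -0.62, SE 0.14, adjusted p = 0.999 in limma). The highest was Osm, the gene of oncostatin M, at 0.32 (SE 0.16). The 10 measured JAK and STAT genes all lay above the mark on every array, 4 higher and 6 lower, with differences from -0.21 (Stat2) to 0.26 (Stat3) and a median of -0.03. Of 14 adaptors of the interleukin-1 and interleukin-17 receptors, 8 were higher and 6 lower. Their highest was Traf3ip2, the Act1 adaptor bound by Il17ra, at 0.74 (SE 0.12, adjusted p = 0.644 in limma), and their lowest the kinase Irak1 at -0.28 (SE 0.18). Of 15 shared adaptors and phosphatases, 11 were higher and 4 lower, from -0.20 (Gab3) to 0.35 (Gab1). Among 5 measured cytokine receptor chains outside the rule, the growth hormone receptor Ghr read 5.89, 6.35 and 5.92 in Merit40-/- and 5.59, 5.54 and 5.59 in WT, without overlap (difference 0.48, SE 0.15, adjusted p = 0.999 in limma), and the lowest was the leptin receptor Lepr at -0.19 (SE 0.13).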

How the data were processed

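Data from 6 arrays (3 Merit40-/-, 3 WT; GeneChip Mouse Gene 2.0 ST) were used as the log2 values that the authors deposited. The submitters' processing notes name RMA and affy. The genome build and the tool versions were not given in the sources used here. RMA gives all arrays 1 intensity distribution, so overall differences in RNA yield are not seen. Of 25206 probe sets, named by Entrez Gene number, 23185 had 1 gene symbol, 0 several and 2021 were unnamed here. All 23185 were tested with limma 3.58.1 in R 4.3.3 (genotype as the only term, 2-sided, Benjamini-Hochberg, threshold 0.05). The number of arrays limits the precision. Alternatives were a replicate block, other variance models, array weights, scalings, filters on dim genes, an unmoderated test and leaving arrays out. Same-numbered arrays did not deviate together (r of -0.05, -0.0027 and 0.04 across genes). Receptor genes and lists were chosen with earlier results of these data known, and receptor pairs, motifs, printed promoters and the fit without 2 Merit40-/- arrays after values were seen. Named were genes whose arrays did not overlap or with an unadjusted p under 0.05, the extremes of each family, fixed shared chains and, in clauses, other members. Some receptor and list genes are not reported here.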

Additional observations from a re-analysis of the deposited data

How the results depend on the processing

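No receptor gene passed the threshold under any alternative run (0 of those tested in each), and with 1 array left out 4 to 8 receptor genes read higher and 0 to 2 lower at an unadjusted p under 0.05, beside 1.76% to 2.67% and 1.54% to 2.22% of all genes. The 2 lower were Il18r1 and Il20ra, without WT replicate 3, where 4 read higher; Il27ra without Merit40-/- replicate 1 and Il17rb without WT replicate 1 were the others. Babam1 was the only gene called in all but 2 settings: the unmoderated test called 0 genes (Babam1 at -3.94, adjusted p = 0.168), with 3 receptor genes at an unadjusted p under 0.05, and a fit without both Merit40-/- arrays that carry muscle or osteoclast transcripts, chosen after seeing the data, called 2 (Babam1 and Mir3079). With 1 Merit40-/- array left, that fit assumes it to vary like the WT arrays. The 3 receptor genes of the unmoderated test were Crlf2, Il18rap and Il1rapl2, so Csf2rb2, Il4ra and Il1r2 were not among them. The replicate block called 1 gene and 0 receptor genes and changed no call. The median difference of the receptor genes was 0.060 without the dimmest 50% of genes, where 27 of 51 were left, and 0.013 to 0.072 with 1 array left out. It was 0.0047 without both of those Merit40-/- arrays. With the 99th percentile of the chemosensory genes as the signal mark, 16 receptor genes lay above it in WT in place of 27.

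Directions of 23 receptor genes turned with single arrays left out. The lowest and highest differences were -0.0070 and 0.57 for Il1r1, -0.045 and 0.14 for Csf3r, -0.081 and 0.11 for Ifnar1, -0.072 and 0.13 for Il15ra, -0.20 and 0.062 for Il3ra, -0.057 and 0.17 for Il17rc, -0.21 and 0.16 for Il6ra, -0.16 and 0.15 for Csf1r, -0.22 and 0.0050 for Ifngr1, -0.17 and 0.086 for Il7r, and -0.075 and 0.21 for Csf2rb. They were -0.089 and 0.058 for Il1rapl1, -0.051 and 0.23 for Il23r, -0.062 and 0.00034 for Il5ra, -0.072 and 0.059 for Il13ra2, -0.10 and 0.094 for Il1rn, -0.19 and 0.077 for Il20rb, -0.11 and 0.13 for Il12rb1, -0.048 and 0.10 for Il9r, -0.065 and 0.21 for Osmr, -0.10 and 0.22 for Il22ra1, -0.018 and 0.11 for Il2ra, and -0.11 and 0.072 for Il17rd. Without both Merit40-/- arrays named above, Il1r1 stood at -0.38, Csf1r at -0.10, Csf2ra at -0.054, Csf2rb at -0.13, Csf3r at -0.22, Il23r at -0.10, Il1rapl1 at 0.10 and Il5ra at 0.040. Il1rapl1 stood at 0.017 with array weights and at 0.0018 with median centring. The cause was not tested. Over the 51 receptor genes, 672 values under an alternative kept their direction and their side of the threshold and 58 turned direction.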
